A study of Homo sapiens with 12 samples.

Results

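Depletion of RNF2 was set directly against depletion of EED in the embryonal carcinoma line NCCIT, derived from a human germ cell tumour, on 4 of the 12 expression arrays of the study. The members of this comparison are the 2 arrays of cells transfected with siRNA against RNF2 (siRNF2) and the 2 arrays of cells transfected with siRNA against EED (siEED), taken by their labels. Each target was depleted with a commercial mixture of siRNAs, delivered in repeated transfections of the whole culture, so that treated and escaped cells were measured together. Cells that received both mixtures (siEED+RNF2, 2 arrays) and a non-targeting siRNA (siNTC, 2 arrays that carry the label of a re-analysis) were used to place a gene whose level differed between the single depletions. The other arrays were of cells with siRNA against WDR5 (siWDR5, 2 arrays) or SETD2 (siSETD2, 2 arrays). They entered the shared estimate of the spread behind the p-values and standard errors, and their levels are given for some genes. All cells were of the same line and were grown in the same medium, and no genotype other than that of the line was involved. The labels number the arrays of a group but do not say that they came from separate cultures, so p-values measure only the spread between these arrays, which may be technical. A lower value cannot be separated into fewer cells that express a gene and less RNA in each of them.

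Polycomb group proteins keep developmental genes silent, and they act in a pair of complexes. EED is a core subunit of Polycomb repressive complex 2 (PRC2), where it binds trimethylated histone H3 (H3K27me3) and helps EZH2 to place that mark. RNF2, also called RING1B, is the catalytic subunit of Polycomb repressive complex 1 (PRC1), which places ubiquitin on histone H2A. Canonical PRC1 is brought to chromatin by CBX proteins that read H3K27me3, whereas variant PRC1 reaches CpG-rich promoters without it. The direct comparison asks which transcripts respond differently to the loss of either activity, and no siNTC array enters it.

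The values are normalised log2 expression levels, so that a difference of 1 is a 2-fold change. The embryonal carcinoma identity of the 4 arrays was checked on the 7 of 10 listed markers that could be measured (SOX2, LIN28A, LIN28B, SALL4, DPPA4, L1TD1 and DNMT3B). Each stood at or above the 86th percentile of gene levels, and none was called between siRNF2 and siEED. The median level over the genes was 6.97 on both siRNF2 arrays and 6.90 and 6.94 on the siEED arrays. The RNF2 transcript itself was not analysed here, so the labels of the siRNF2 arrays were not checked against their own target. EED was measured at 8.85 and 8.80 on the siRNF2 arrays, against 8.25 and 8.14 on the siEED arrays. It was at 7.93 and 7.82 on the siEED+RNF2 arrays and at 9.55 and 9.43 on the siNTC arrays. The EED level thus was lowest where EED was targeted, and the siRNF2 arrays lay between siEED and siNTC without overlap. EED was 1.55-fold higher in siRNF2 than in siEED (log2 difference 0.63 ± 0.08 SE, n = 2 each, limma adjusted p = 0.00073), and the call was lost without siEED replicate 2 (0.58). EED differed from siNTC by -0.66 in siRNF2 and by -1.29 in siEED, both called. The siWDR5 arrays (8.86 and 9.05) and the siSETD2 arrays (9.11 and 9.02) were below siNTC as well. A level under the control was thus not particular to siRNF2 and siEED.

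Of 18417 genes, 232 were called between the depletions, which is 1.26% of the genes (limits 0.05 on the adjusted p and 1.5 on the fold). In siRNF2, 146 genes were higher (0.793%) and 86 were lower (0.467%) than in siEED. The 2-fold mark was reached by 23 of the higher and 15 of the lower genes. The median difference over all genes was 0.0025, and a further 1736 genes passed the adjusted p at a smaller fold change. At an unadjusted p under 0.05, 13.8% of all genes were higher and 9.89% were lower, which is the background for such counts in the lists. The smallest called difference was 0.586 and the largest just below the fold limit was 0.584, so the limit falls in a continuous range. In all 232 called genes both siRNF2 arrays lay beyond both siEED arrays, which held for 53.0% of all genes. For scale, 10.2% of the genes were called between siRNF2 and siNTC and 6.37% between siEED and siNTC. The called genes comprised 221 protein-coding genes, 5 long noncoding RNAs and 6 genes of other classes. Centring each array on its gene median moved the balance to 103 higher and 113 lower genes, so that 47.7% of the calls were higher, against 62.9% as reported.

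**Figure D1:**
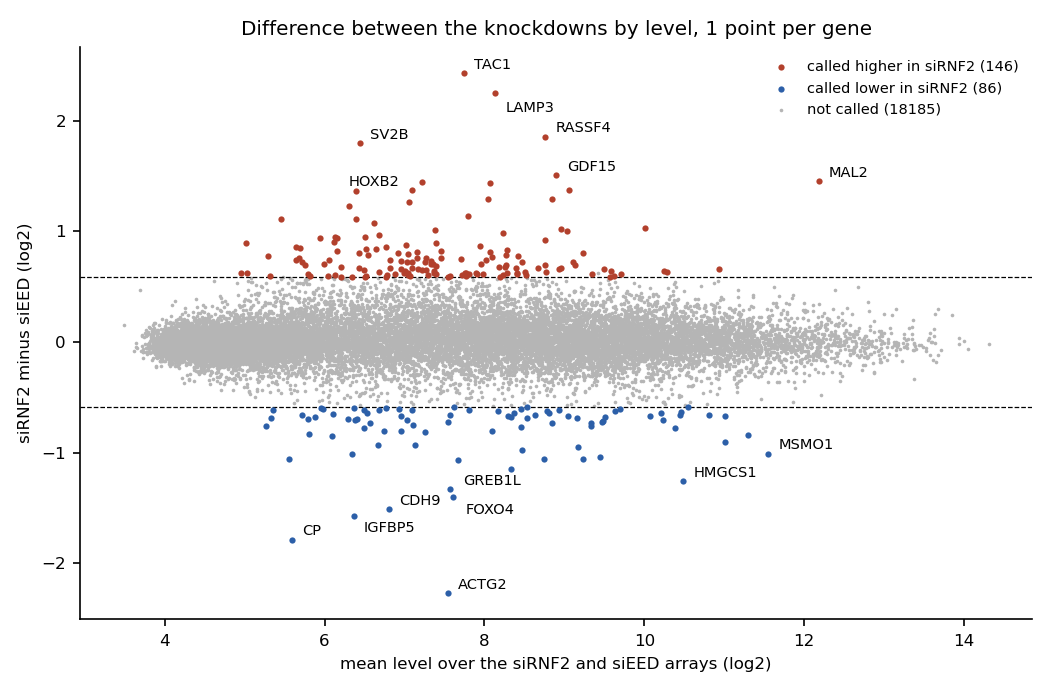
Mean log2 level over the siRNF2 and siEED arrays (x axis) and the log2 difference siRNF2 minus siEED (y axis), 1 point per gene, with dashed lines at the 1.5-fold limit. The 146 genes called higher (red) and 86 called lower (blue) were spread over the range of levels, with TAC1 at 2.43 and ACTG2 at -2.27 as the extremes.

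The extremes of the comparison were a neuropeptide gene and a smooth muscle actin gene. TAC1 encodes the precursor of substance P and neurokinin A, and ACTG2 encodes gamma-2 actin of enteric smooth muscle. Their promoter windows, which reach from 250 bases before to 50 bases after the annotated start in RefSeq (GRCh38.p14), are shown because Polycomb complexes are known to occupy CpG-rich promoters. CpG dinucleotides are in capitals. The TAC1 window lies at chr7:97731836-97732135 on the plus strand and the ACTG2 window at chr2:73892758-73893057 on the plus strand, both read 5′ to 3′ along the gene.
TAC1: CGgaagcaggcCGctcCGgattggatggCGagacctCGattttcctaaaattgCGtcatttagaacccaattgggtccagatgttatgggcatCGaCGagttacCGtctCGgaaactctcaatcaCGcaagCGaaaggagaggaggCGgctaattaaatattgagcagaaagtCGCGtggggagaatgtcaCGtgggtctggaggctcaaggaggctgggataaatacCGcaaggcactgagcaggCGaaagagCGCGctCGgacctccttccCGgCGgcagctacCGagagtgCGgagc
ACTG2: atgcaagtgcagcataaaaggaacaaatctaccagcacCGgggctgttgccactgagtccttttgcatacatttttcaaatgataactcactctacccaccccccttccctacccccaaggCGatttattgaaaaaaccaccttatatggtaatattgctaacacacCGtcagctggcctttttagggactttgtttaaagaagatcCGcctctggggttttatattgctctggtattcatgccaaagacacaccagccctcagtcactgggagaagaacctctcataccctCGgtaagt
The TAC1 window held 25 CpG and the ACTG2 window 5. Such a window was found for 14237 of the genes tested, with the first listed start used where a gene had several. The median was 22 CpG over the 121 higher genes with a window (quartiles 13 and 31) and 12 over the 60 lower genes (quartiles 5.75 and 28.2), beside 23 over all 14237 (quartiles 9 and 32). The lower genes thus had the smallest median, with quartiles that overlap those of the higher genes.

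TAC1 was measured at 8.86 and 9.06 on the siRNF2 arrays, against 6.37 and 6.68 on the siEED arrays. The siEED+RNF2 arrays gave 6.49 and 6.59 and the siNTC arrays 4.96 and 4.84. TAC1 was therefore highest in siRNF2, and the dual depletion fell inside the range of siEED. The difference was 5.39-fold (log2 difference 2.43 ± 0.11 SE, 95% confidence interval 2.19 to 2.67, adjusted p = 3.5e-07). The gap between siEED+RNF2 and siEED was 0.01 (adjusted p = 0.96). SV2B, which encodes a glycoprotein of synaptic vesicles, followed the same order. It was at 7.31 and 7.36 in siRNF2, against 5.58 and 5.50 in siEED, and at 5.52 on both siEED+RNF2 arrays and 4.45 and 4.46 in siNTC. The SV2B difference was 1.80 ± 0.06 (adjusted p = 4e-08), and siEED+RNF2 differed from siEED by -0.02 (adjusted p = 0.91).

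Further genes with roles in neurons were among the 12 highest differences of named genes. A long noncoding RNA with a provisional symbol, of a kind counted and not named here, ranked just above the last of these 12. KIF1A, a kinesin that moves synaptic vesicle precursors along axons, was at 8.70 and 8.88 in siRNF2, against 7.34 and 7.35 in siEED (1.44 ± 0.08). KIF1A stood 1.57 above siNTC in siRNF2 and 0.13 above it in siEED (adjusted p = 0.27 for siEED). L1CAM, a neuronal adhesion molecule, was at 7.19 and 6.95 in siRNF2, against 5.51 and 5.91 in siEED (1.36 ± 0.13). Its siEED arrays differed more than those of most genes, and its difference from siNTC was 1.18 in siRNF2 and -0.18 in siEED (adjusted p = 0.29 for siEED). These 2 genes were thus called against siNTC in siRNF2 and not in siEED, and their direct difference was itself called. L1CAM was also above siNTC in siWDR5 (7.02 and 6.95) and siSETD2 (6.22 and 6.48), so its rise was not particular to siRNF2. KIF1A was below siNTC in siWDR5 (7.10 and 7.14) and siSETD2 (6.11 and 6.26).

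Over the 27 measured neuropeptide, granin and neuronal secretory genes, 2 were called higher and 1 lower in siRNF2. Besides TAC1, GAL, the precursor of galanin, was at 10.51 and 10.62 in siRNF2, against 9.87 and 9.97 in siEED (0.64 ± 0.08), and its call was lost without siRNF2 replicate 2 (0.585, at the fold limit). STMN2, a stathmin of growing axons, was lower, with 10.94 and 10.82 in siRNF2, against 11.77 and 11.66 in siEED (-0.84 ± 0.07, adjusted p = 4.2e-05). STMN2 stood 0.09 from siNTC in siRNF2 (adjusted p = 0.34) and 0.92 above it in siEED. It was at 10.75 and 10.84 in siNTC, and at 11.64 and 11.69 in siEED+RNF2. With siRNA against WDR5 it was at 12.06 and 12.08, and against SETD2 at 11.74 and 11.65. A level above siNTC was thus not particular to siEED. The median difference of the list was 0.05. Calls in this list thus went in both directions.

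**Figure D2:**
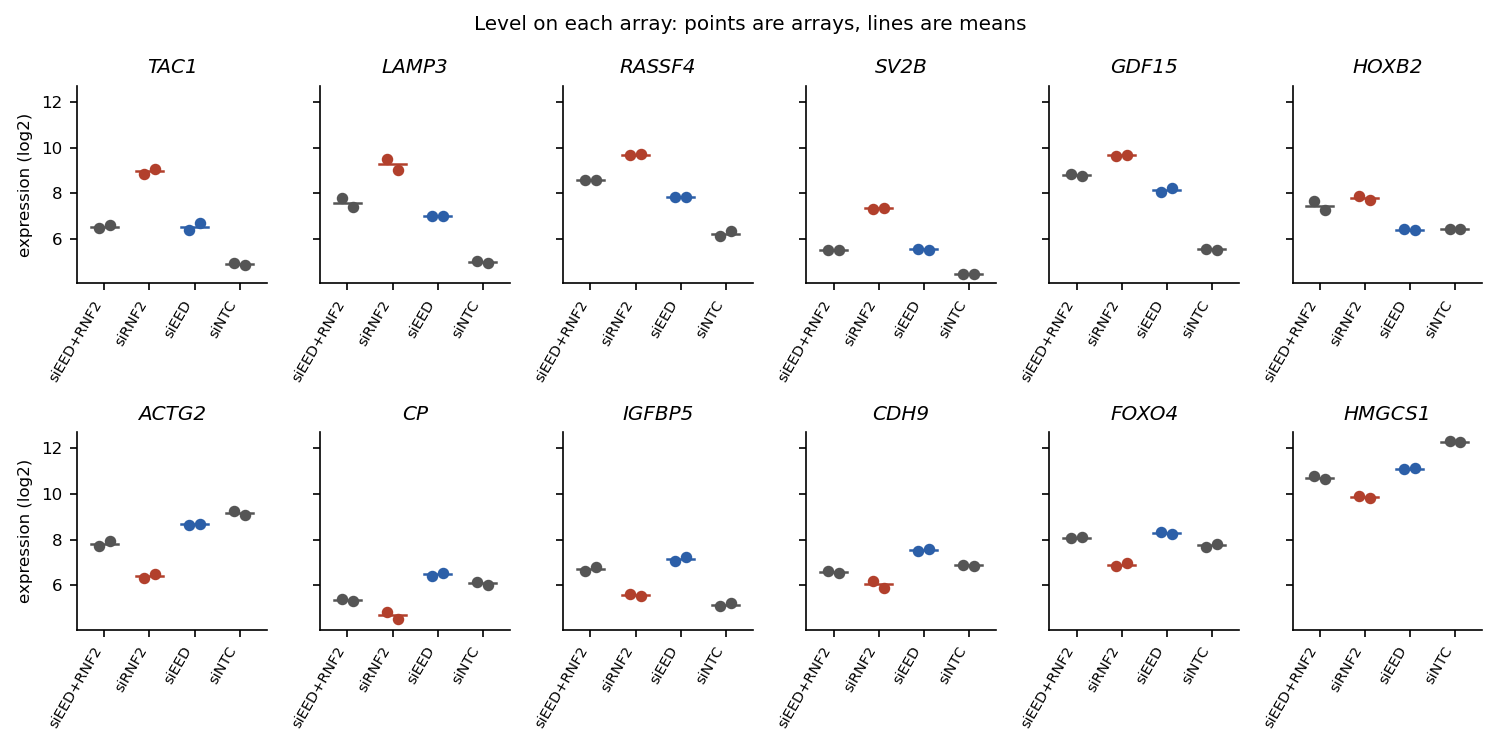
Log2 level on each array (points) with the mean of each condition (lines) for 12 genes, in siEED+RNF2, siRNF2, siEED and siNTC. In TAC1 and SV2B the siEED+RNF2 arrays lay with siEED, in HOXB2 they lay near siRNF2, and in CDH9 siNTC lay between siRNF2 and siEED.

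LAMP3, GDF15 and 4 other genes of the amino acid response were called higher in siRNF2. ATF4 is a transcription factor that is translated when amino acids are scarce or the endoplasmic reticulum is under stress, and it turns on genes for amino acid synthesis and transport. Of 52 measured genes of this response, 6 were called higher and 0 lower, and 44 had a positive difference. A further 19 passed the adjusted p at a smaller fold change, all of them higher. The median difference was 0.21, beside 0.0025 over all genes. Relative to siNTC the median of the list was 1.17 in siRNF2 and 0.99 in siEED, above the control in both depletions. The 6 called members were above siNTC on the siWDR5 arrays too. There INHBE was at 8.09 and 7.75 and PCK2 at 8.76 and 8.69, against 6.14 and 6.24 for PCK2 in siNTC. On the siSETD2 arrays PCK2 was at 5.87 and 5.94. A rise of these members was thus not particular to siRNF2 and siEED.

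LAMP3, a lysosomal membrane protein that is known to be induced through ATF4 in human cells, was at 9.48 and 9.03 in siRNF2, against 7.00 and 7.02 in siEED. The siEED+RNF2 arrays gave 7.79 and 7.39 and the siNTC arrays 5.04 and 4.94. These conditions were separate for LAMP3, in the order siNTC, siEED, siEED+RNF2, siRNF2. Its siRNF2 over siEED fold was 4.74 (adjusted p = 5.7e-06). GDF15, a stress-induced secreted factor of the TGF-beta family, was at 9.62 and 9.68 in siRNF2, against 8.07 and 8.22 in siEED. With both siRNA mixtures GDF15 was at 8.84 and 8.74, with siNTC at 5.56 and 5.53, and its difference between the single depletions was 1.51 ± 0.09 (adjusted p = 1.9e-06). The remaining called members were INHBE, an inhibin beta subunit (0.80), SLC43A1, a transporter of large neutral amino acids (0.74), TRIB3, a pseudokinase (0.70), and PCK2, the mitochondrial phosphoenolpyruvate carboxykinase (0.59). INHBE was at 9.71 and 9.56 in siRNF2, against 8.83 and 8.84 in siEED, far above 5.50 and 5.40 in siNTC. Members below the fold limit included ASNS, asparagine synthetase, at 0.42 (adjusted p = 0.0025), and DDIT3, the stress factor CHOP, at 0.35 (adjusted p = 0.011). ATF4 itself differed by 0.12 (adjusted p = 0.29). NIBAN1, a stress-responsive gene outside the list, was at 9.75 and 9.74 in siRNF2, against 8.33 and 8.42 in siEED (1.37 ± 0.07).

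Of 25 measured chaperones and other genes of the unfolded protein response of the endoplasmic reticulum, 0 were called by limma, while 5 were higher and 3 lower at an unadjusted p under 0.05. Their median difference was 0.04. Of 24 lysosome genes, 2 were called higher and 0 lower. These were LAMP3 and WIPI1, an early autophagy protein (9.93 and 9.89 in siRNF2, against 9.28 and 9.25 in siEED, difference 0.64 ± 0.06). The median of the lysosome list was 0.08.

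The remaining genes among the 12 highest named differences had varied roles. RASSF4, a Ras association domain protein, was at 9.66 and 9.70 in siRNF2, against 7.83 on both siEED arrays. The siEED+RNF2 arrays were at 8.56 and 8.59 and those of siNTC at 6.14 and 6.33, so the dual depletion lay between the single ones (siRNF2 minus siEED 1.86 ± 0.08, adjusted p = 3.2e-07). MAL2, a protein of apical transport in epithelial cells, was at 12.91 on both siRNF2 arrays, against 11.49 and 11.42 in siEED (1.46 ± 0.06). SLC34A2, a sodium and phosphate cotransporter, was at 7.95 and 7.93 in siRNF2, against 6.40 and 6.58 in siEED (1.45 ± 0.08). P4HA2, a subunit of collagen prolyl 4-hydroxylase, was at 9.56 and 9.43 in siRNF2, against 8.20 on both siEED arrays (1.29 ± 0.07). P4HA2 was the single member called among 29 hypoxia and glycolysis genes, whose median difference was 0.03. All 4 genes were called above siNTC in siRNF2 and in siEED.

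HOX genes are the classical targets of Polycomb silencing, and they set position along the body axis. Of 27 measured HOX genes, 3 were called higher and 0 lower in siRNF2, and 17 had a positive difference. HOXB2, an anterior member active in the hindbrain, was at 7.86 and 7.69 in siRNF2, against 6.42 and 6.39 in siEED. The siEED+RNF2 arrays gave 7.65 and 7.26, and siNTC gave 6.44 and 6.45. The siSETD2 arrays gave 6.78 and 6.71 and the siWDR5 arrays 6.34 and 6.26. HOXB2 was thus raised most on the arrays with RNF2 siRNA and less on the siSETD2 arrays. The siEED level of HOXB2 was 0.04 below siNTC on average (adjusted p = 0.80). Its direct difference was 1.37 ± 0.11 (95% confidence interval 1.14 to 1.61, adjusted p = 2.8e-05), and siEED+RNF2 exceeded siEED by 1.06 (adjusted p = 4e-05). Between siEED+RNF2 and siEED 2.91% of the genes were called, and between siEED+RNF2 and siRNF2 3.27%.

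HOXB3, the neighbour of HOXB2 in the cluster, was at 5.98 and 6.04 in siRNF2, against 5.35 and 5.19 in siEED, with 5.12 and 5.16 in siNTC (siRNF2 minus siEED 0.74 ± 0.07). HOXA2, the paralog of HOXB2, was at 5.24 and 5.29 in siRNF2, against 4.72 and 4.57 in siEED (0.62 ± 0.07). In HOXB3 and HOXA2, as in HOXB2, the siRNF2 arrays were called above siNTC and the siEED arrays were not. HOXA2 remained at a low level, and its call was lost without siEED replicate 2 (0.55). A further 7 HOX genes passed the adjusted p below the fold limit, all higher, among them HOXB9 (0.54), HOXD10 (0.53) and HOXD4 (0.51). HOXC8 had the lowest difference (-0.16, adjusted p = 0.23). The median of the list was 0.06.

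Of 69 other developmental transcription factors, 1 was called higher and 0 lower, with a median of 0.04 and 47 positive differences. A further 6 passed the adjusted p below the fold limit, all higher, among them TBX20 (0.54) and ZIC1 (0.52), factors of heart and of neural development. LHX2, a LIM homeobox factor of the forebrain and eye, was at 7.46 and 7.41 in siRNF2, against 6.73 and 6.80 in siEED (0.67 ± 0.07, adjusted p = 1.4e-04). LHX2 was at 7.52 and 7.58 in siNTC, from which siEED was called lower (-0.79) and siRNF2 was not (-0.12, adjusted p = 0.18). A low level was not particular to siEED, as LHX2 was at 6.40 and 6.54 with siRNA against SETD2. With siRNA against WDR5 it was at 7.12 and 7.07. On the siEED+RNF2 arrays, where EED was targeted as well, LHX2 was at 7.34 and 7.30. That is 0.56 above siEED (adjusted p = 0.00013, short of the fold limit) and -0.11 from siRNF2 (adjusted p = 0.31). For comparison, GATA4, PAX6 and SOX17, which are known Polycomb targets of other lineages, differed by 0.03, 0.13 and -0.03. None of these 3 passed the test. Among 23 measured PRC1 subunits 0 were called by limma, with 9 higher and 2 lower at an unadjusted p under 0.05. The farthest were KDM2B, the CpG-binding subunit of a variant PRC1, at -0.37 (adjusted p = 0.0058), and its partner BCOR at 0.34 (adjusted p = 0.0052). RING1, the paralog of RNF2, differed by 0.22 (adjusted p = 0.12). Among 12 PRC2 subunits EED alone was called, and EZH2 differed by 0.18 (adjusted p = 0.12) and SUZ12 by -0.05 (adjusted p = 0.71).

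Of 21 cell junction and epithelial genes, 3 were called higher and 0 lower in siRNF2, with a median of 0.14. RAB25, an epithelial GTPase of apical recycling, was at 8.60 and 8.73 in siRNF2, against 7.88 on both siEED arrays (0.79 ± 0.07). It was at 9.61 on both siNTC arrays, so both depletions were below the control and siEED the further. CLDN7, a tight junction claudin, was at 7.66 and 7.58 in siRNF2, against 6.88 and 6.90 in siEED (0.73 ± 0.06, adjusted p = 3.9e-05), and it was at 7.10 and 7.05 in siNTC. CLDN1, another claudin, differed by 0.64 ± 0.12, and its call was lost without siRNF2 replicate 1 (0.50) or without siEED replicate 1 (0.47). CDH1, E-cadherin, differed by 0.39 (adjusted p = 0.0032). CLDN6, a claudin of pluripotent cells, had a difference of -0.54 (adjusted p = 3.9e-04), under the fold limit. The list therefore held members on both sides.

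Single calls were made in other lists. NID1, the basement membrane protein nidogen, was at 8.78 and 8.67 in siRNF2, against 7.77 and 7.70 in siEED (0.99 ± 0.07, adjusted p = 9e-06). NID1 was at 7.96 and 8.04 in siNTC, and also above it in siWDR5 (8.66 and 8.67) and siSETD2 (8.33 and 8.24). HAPLN1, a link protein of cartilage matrix, was at 5.07 and 5.01 in siRNF2, against 5.64 and 5.68 in siEED (-0.62 ± 0.11). They were the 2 calls among 34 extracellular matrix genes, whose median was -0.04. ARRDC4, an arrestin domain protein related to the thioredoxin interacting protein, was at 7.91 and 7.77 in siRNF2, against 6.96 and 6.93 in siEED (0.89 ± 0.08), 1 of 7 genes of its family. Among 23 ERK feedback and immediate early genes, DUSP6, a phosphatase of ERK, was called higher (6.27 and 5.97 in siRNF2, against 5.50 and 5.56 in siEED, difference 0.59). EGR1, an immediate early transcription factor, was called lower (6.54 and 6.80 in siRNF2, against 7.46 and 7.30 in siEED, difference -0.71). DUSP6 was at 7.95 and 8.02 and EGR1 at 8.82 and 8.79 in siNTC, above both depletions. The call of DUSP6 was lost without siRNF2 replicate 1 (0.44) or without siEED replicate 1 (0.56), and that of EGR1 without siRNF2 replicate 1 (-0.58).

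HMGCS1, MSMO1 and 5 other genes of sterol and fatty acid synthesis were called lower in siRNF2. Enzymes of this list build cholesterol from acetyl-CoA by way of mevalonate, and the pathway is switched on by SREBP factors when sterols run low. Of 27 measured genes, 7 were called lower and 0 higher, and 25 had a negative difference. A further 11 passed the adjusted p below the fold limit, all lower. The median difference was -0.39, beside 0.0025 over all genes. The median against siNTC was -0.58 in siRNF2 and -0.26 in siEED. The list's mean level lay between 9.54 and 9.55 on the siRNF2 arrays, between 9.92 and 9.97 on the siEED arrays and at 10.20 and 10.21 on the siNTC arrays.

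SREBP factors are known to act with NF-Y, which binds the CCAAT box, and the promoter windows of 3 of the called genes are shown for that reason. HMGCS1 is the synthase that makes HMG-CoA ahead of mevalonate, MSMO1 is a methylsterol oxidase and LSS is lanosterol synthase. The windows lie at chr5:43313363-43313662 on the minus strand, chr4:165327419-165327718 on the plus strand and chr21:46228725-46229024 on the minus strand (RefSeq, GRCh38.p14). CCAAT, or ATTGG where it is on the opposite strand, is in capitals.
HMGCS1: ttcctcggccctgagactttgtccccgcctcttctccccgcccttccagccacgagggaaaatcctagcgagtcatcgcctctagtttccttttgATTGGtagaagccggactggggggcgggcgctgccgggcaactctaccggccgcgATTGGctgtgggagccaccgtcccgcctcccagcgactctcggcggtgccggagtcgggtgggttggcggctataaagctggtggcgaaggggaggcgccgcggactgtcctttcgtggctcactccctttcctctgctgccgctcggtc
MSMO1: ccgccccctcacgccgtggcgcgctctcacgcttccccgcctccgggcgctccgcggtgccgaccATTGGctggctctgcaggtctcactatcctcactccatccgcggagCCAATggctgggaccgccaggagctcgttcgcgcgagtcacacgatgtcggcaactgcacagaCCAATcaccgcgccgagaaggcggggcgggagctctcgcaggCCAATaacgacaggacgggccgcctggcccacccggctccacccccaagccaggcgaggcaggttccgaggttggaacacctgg
LSS: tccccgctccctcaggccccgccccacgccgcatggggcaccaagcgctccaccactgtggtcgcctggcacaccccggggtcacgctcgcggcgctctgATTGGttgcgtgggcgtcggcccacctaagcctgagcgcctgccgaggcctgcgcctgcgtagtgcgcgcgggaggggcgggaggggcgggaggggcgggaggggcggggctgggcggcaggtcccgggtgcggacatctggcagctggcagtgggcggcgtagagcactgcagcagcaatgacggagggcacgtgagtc
The motif occurred 2 times in HMGCS1, 4 times in MSMO1 and 1 time in LSS. All 5 called genes of the list with a window (HMGCS1, MSMO1, INSIG1, DHCR7 and LSS) held CCAAT on either strand, as did 36.3% of all windows of that length, 46.7% of those of the lower genes and 24.8% of those of the higher genes. Searched on both strands in the same way, the sterol element form TCACNCCA was in 3.67% of all windows, in 3 of 60 lower and 3 of 121 higher genes, and in MSMO1 alone of the 5. The ATF4 response element form TGATGNAA was in 2.54% of all windows and in 2 of 121 higher genes, and in 0 of the 4 called genes of the amino acid response with a window. The CArG box, which the muscle regulator SRF binds, was in 1.22% of all windows, in 2 of the 60 lower genes including ACTG2 and in 1 of the 121 higher genes. A match is a description of letters and says nothing of binding.

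HMGCS1 was at 9.90 and 9.81 in siRNF2, against 11.09 and 11.13 in siEED. The siEED+RNF2 arrays were at 10.77 and 10.64 and the siNTC arrays at 12.30 and 12.28. The 4 conditions did not overlap, with siRNF2 the lowest. HMGCS1 was 2.39-fold lower in siRNF2 (log2 difference -1.26 ± 0.07, 95% confidence interval -1.40 to -1.11, adjusted p = 1.1e-06). MSMO1 was at 11.05 and 11.04 in siRNF2, against 12.08 and 12.02 in siEED, with 12.94 and 12.89 in siNTC (siRNF2 minus siEED -1.01 ± 0.08). INSIG1, the sterol-sensing anchor that holds SREBP in the endoplasmic reticulum, was at 7.15 and 7.22 in siRNF2, against 7.92 and 7.89 in siEED (-0.72 ± 0.08). DHCR7, which catalyses the last step of cholesterol synthesis, was at 9.88 and 9.90 in siRNF2, against 10.57 and 10.62 in siEED (-0.71 ± 0.06). In siEED+RNF2, INSIG1 was 0.02 and DHCR7 0.11 from siEED (adjusted p = 0.93 and 0.28).

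The other called members were LSS (-0.68), fatty acid synthase FASN (-0.66) and squalene epoxidase SQLE (-0.66). IDI1, STARD4 and FDPS, an isomerase, a sterol carrier and a synthase of the pathway, were at -0.54, -0.52 and -0.49, all past the adjusted p and short of the fold limit. The regulators SREBF2 and SREBF1 themselves differed by -0.21 (adjusted p = 0.13) and -0.24 (adjusted p = 0.035). PMVK, phosphomevalonate kinase, and TM7SF2, a sterol reductase, were the only positive members of the 27 (0.21 and 0.07). Of 11 genes of cholesterol efflux under LXR, 0 were called by limma, with 2 higher and 3 lower at an unadjusted p under 0.05.

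**Figure D3:**
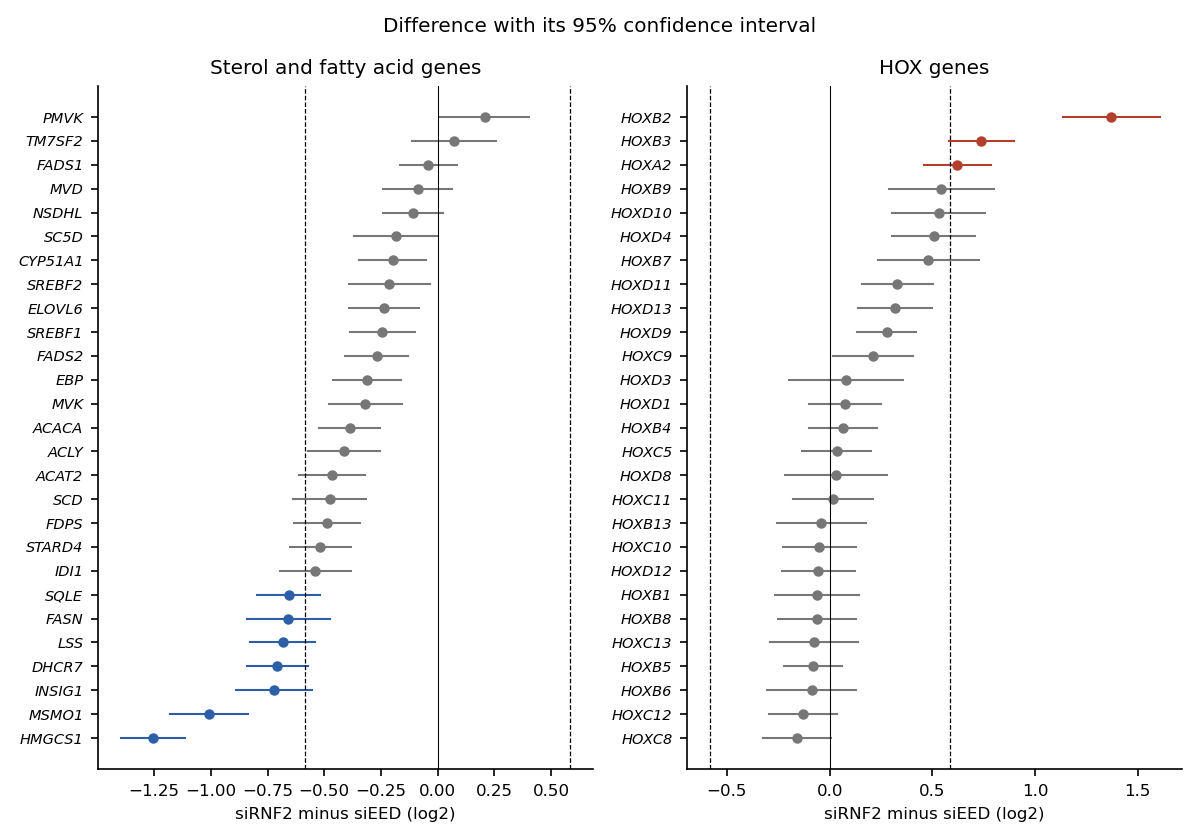
Log2 difference siRNF2 minus siEED (x axis) with its 95% confidence interval for the 27 measured sterol and fatty acid genes and the 27 measured HOX genes, with dashed lines at the 1.5-fold limit. In the first list 25 members lay below 0 and 7 were called lower, and in the second 3 were called higher, led by HOXB2 at 1.37.

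The gene with the lowest difference was ACTG2. It was at 6.33 and 6.49 in siRNF2, against 8.65 and 8.70 in siEED. Both siEED+RNF2 arrays (7.71 and 7.94) were between these, and the siNTC arrays were at 9.25 and 9.09. The siRNF2 arrays were the lowest of these 4 conditions, at 4.82-fold below siEED (log2 difference -2.27 ± 0.12, 95% confidence interval -2.53 to -2.01, adjusted p = 1.1e-06). With siRNA against WDR5, ACTG2 was at 6.26 and 6.36, and with siRNA against SETD2 at 5.97 and 5.59. A low level was thus not particular to siRNF2. ACTG2 was the single call among 18 mesoderm and smooth muscle markers, whose median was -0.03, with 8 positive and 10 negative differences and 4 genes on either side at an unadjusted p under 0.05. Among its muscle genes the differences were -0.32 for TAGLN (adjusted p = 0.10), -0.30 for ACTA2 (adjusted p = 0.040), 0.20 for CNN1 (adjusted p = 0.17) and 0.35 for DES (adjusted p = 0.026). MYOCD, a coactivator of SRF in smooth muscle that is outside the list and was picked after its values were seen, was called higher, at 6.37 and 6.48 in siRNF2, against 5.48 and 5.90 in siEED (0.74 ± 0.12, adjusted p = 0.0023). MYH11, the defining myosin of smooth muscle, was at 4.58 and 4.59 in siRNF2, against 4.57 and 4.53 in siEED. The mean level of that list was 5.69 to 5.74 in siRNF2, against 5.79 to 5.87 in siEED.

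Of markers of other lineages, 1 of 12 neuroectoderm genes (STMN2) was called lower. No endoderm and yolk sac gene of 13, trophoblast gene of 11 or blood cell gene of 9 was called by limma, with 2, 1 and 0 at an unadjusted p under 0.05. The mean level of the neuroectoderm list was 6.42 on both siRNF2 arrays, against 6.51 to 6.57 in siEED. That of the endoderm and yolk sac list was 5.07 to 5.09 in siRNF2, against 5.06 to 5.08 in siEED. Trophoblast genes were at 5.55 to 5.56 in siRNF2, against 5.55 to 5.56 in siEED, and blood cell genes at 4.55 to 4.56 in siRNF2, against 4.58 in siEED.

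CP, the copper-binding ferroxidase ceruloplasmin, was at 4.85 and 4.54 in siRNF2, against 6.41 and 6.55 in siEED. The siEED+RNF2 arrays were at 5.40 and 5.33 and the siNTC arrays at 6.16 and 6.04. CP was lower in siRNF2 and in siEED+RNF2 than in siEED, but it was also at 5.50 and 5.36 in cells with siRNA against WDR5 and at 4.78 and 5.06 with siRNA against SETD2. The difference of CP between siRNF2 and siEED was -1.79 ± 0.12 (adjusted p = 4.9e-06). IGFBP5, a binding protein of insulin-like growth factors, was at 5.61 and 5.54 in siRNF2, against 7.07 and 7.23 in siEED, and at 5.12 and 5.21 in siNTC. IGFBP5 was 0.42 above siNTC in siRNF2, short of the fold limit (adjusted p = 0.0032), and 1.99 above it in siEED, the high condition. The direct difference of IGFBP5 was -1.57 ± 0.09 (adjusted p = 1.9e-06).

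CDH9, a cadherin of neurons, was the 1 gene among the 232 that was called in opposite directions against siNTC. It was at 6.20 and 5.91 in siRNF2, against 7.52 and 7.60 in siEED, while siNTC was at 6.90 and 6.87. CDH9 differed from siNTC by -0.83 in siRNF2 (adjusted p = 3e-05) and by 0.68 in siEED (adjusted p = 2.2e-04). A low level was not particular to siRNF2, as CDH9 was at 5.77 and 5.95 with siRNA against WDR5. With siRNA against SETD2 it was at 7.05 and 7.14. Its direct difference was -1.51 ± 0.10 (adjusted p = 4.2e-06), and the siEED+RNF2 arrays were at 6.65 and 6.54, nearer to siRNF2. FOXO4, a forkhead factor restrained by insulin signalling, had the same order at a smaller size. It was at 6.83 and 6.98 in siRNF2, against 8.35 and 8.26 in siEED, with 7.69 and 7.81 in siNTC (siRNF2 minus siEED -1.40 ± 0.08). FOXO4 in siEED+RNF2 was at 8.06 and 8.10, 0.22 below siEED (adjusted p = 0.077).

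The other genes among the 12 lowest differences (GREB1L, PKDCC, LEFTY2, LIX1, ADAMTS9 and DSEL) had varied roles, and all 6 were called above siNTC in siEED. GREB1L, which is linked to retinoic acid signalling and kidney development, was at 6.95 and 6.87 in siRNF2, against 8.20 and 8.27 in siEED, with 5.39 and 5.26 in siNTC (siRNF2 minus siEED -1.33 ± 0.08). PKDCC, a secreted tyrosine kinase of skeletal development, was at 7.66 and 7.87 in siRNF2, against 8.83 and 8.98 in siEED, with 7.51 and 7.37 in siNTC (-1.15 ± 0.09). LEFTY2, an antagonist of NODAL that is expressed in pluripotent cells, was at 7.08 and 7.20 in siRNF2, against 8.13 and 8.28 in siEED. In siNTC LEFTY2 was at 6.92 and 7.35, a range that contains both siRNF2 arrays, and its difference between the depletions was -1.07 ± 0.12 (adjusted p = 3.1e-04). LIX1 was at 5.09 and 4.98 in siRNF2, against 5.90 and 6.28 in siEED (-1.06 ± 0.11). ADAMTS9, a secreted metalloprotease, was at 8.72 and 8.68 in siRNF2, against 9.73 and 9.78 in siEED (-1.06 ± 0.06). DSEL, a gene related to dermatan sulfate epimerase, was at 8.26 and 8.17 in siRNF2, against 9.18 and 9.36 in siEED (-1.05 ± 0.09).

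Of 16 retinoic acid genes, 2 were called lower and 0 higher. CRABP2, a carrier of retinoic acid into the nucleus, was at 8.16 and 7.98 in siRNF2, against 8.76 and 8.92 in siEED, with 6.53 and 6.37 in siNTC (siRNF2 minus siEED -0.77 ± 0.11). CYP26A1, which degrades retinoic acid, was at 6.83 and 6.74 in siRNF2, against 7.27 and 7.52 in siEED (-0.61 ± 0.09), and its call was lost without siRNF2 replicate 2 (-0.57) or siEED replicate 2 (-0.48). The median of the list was 0.01, and the receptor gene RARB differed by -0.18 (adjusted p = 0.27). Of 29 NODAL, WNT and BMP ligands and antagonists, 2 were called lower and 1 higher, with a median of -0.03. The calls were LEFTY2, WNT8A and INHBE. WNT8A, a WNT ligand of early embryos, was at 5.77 and 5.79 in siRNF2, against 6.45 and 6.42 in siEED (-0.65 ± 0.14, adjusted p = 0.014). The WNT8A call was lost without each of the 4 arrays in turn, with adjusted p-values of 0.083 and 0.069 without siRNF2 replicates 1 and 2, and of 0.084 and 0.063 without siEED replicates 1 and 2. PTCH1, the hedgehog receptor and a target of its own pathway, was the single call among 15 hedgehog genes, at 10.18 and 10.11 in siRNF2, against 10.79 and 10.75 in siEED (-0.63 ± 0.07). GLI1, another hedgehog target, differed by -0.08 (adjusted p = 0.79). PEG10, a paternally expressed imprinted gene, was at 10.67 and 10.68 in siRNF2, against 11.31 and 11.38 in siEED (-0.67 ± 0.07), the 1 call among 16 imprinted genes.

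**Figure D4:**
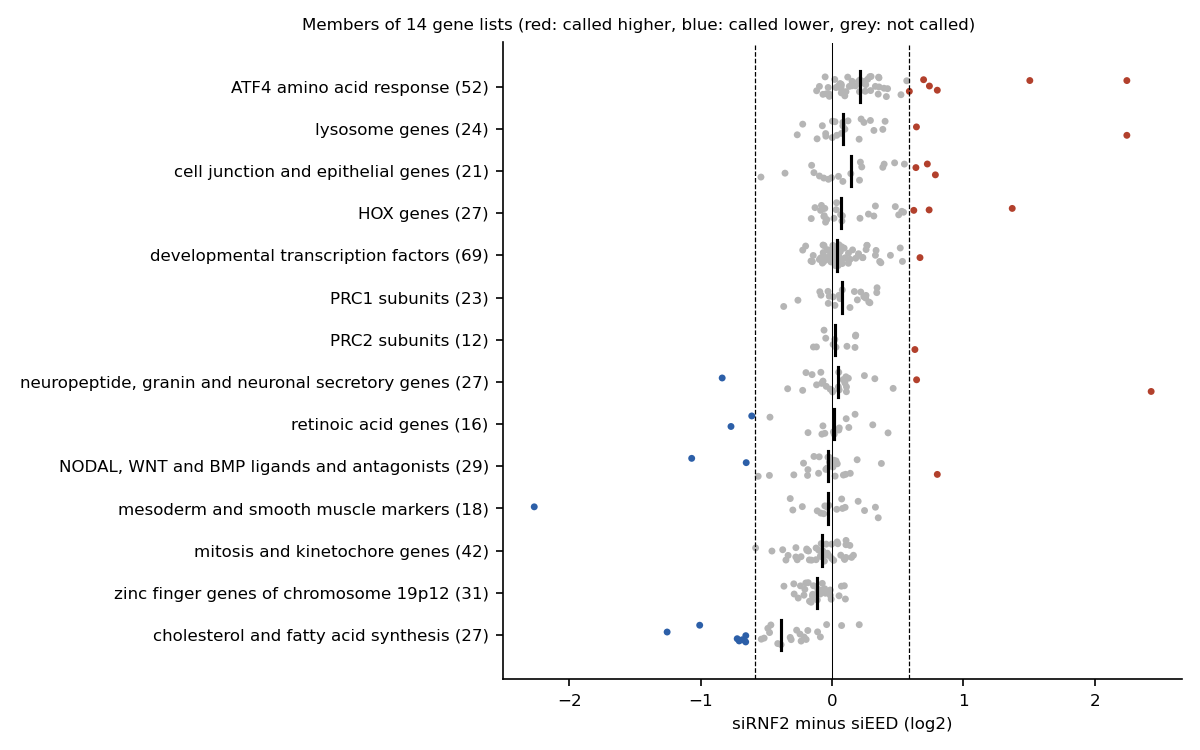
Log2 difference siRNF2 minus siEED (x axis) for the measured members of 14 gene lists (number measured in brackets), with the median of each list as a black bar and dashed lines at the 1.5-fold limit. The medians ran from -0.39 for cholesterol and fatty acid synthesis to 0.21 for the ATF4 amino acid response.

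Lists of the cell cycle held no call. Of 42 mitosis and kinetochore genes 0 were called by limma, with 1 higher and 15 lower at an unadjusted p under 0.05 and a median of -0.08. ASPM, a spindle pole protein, came closest to a call, at -0.58 (adjusted p = 0.0006). DNA replication genes (24) gave 0 calls, with 2 higher and 7 lower at the unadjusted p, and p53 targets (19) gave 0, with 3 higher and 2 lower. None of 17 MLL/COMPASS subunits was called, with 0 higher and 4 lower at the unadjusted p, and SETD1B, a methyltransferase of H3K4, was farthest at -0.56 (adjusted p = 2.3e-04). None of 16 DNA methyltransferases, TET enzymes and cofactors was called, with 2 higher and 6 lower at the unadjusted p. Zinc finger genes of a cluster on chromosome 19 (31 measured) had 0 calls, 0 higher and 7 lower at the unadjusted p, and 27 negative differences.

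The position of the control and of the dual depletion was read for the genes called. Of the 146 higher genes, siNTC lay below both depletions in 95 (65.1%), between them in 36 (24.7%) and above both in 15 (10.3%). Over all 9354 genes whose siRNF2 mean exceeded the siEED mean these shares were 44.9%, 16.3% and 38.8%. Of the 86 lower genes, siNTC lay above both depletions in 36 (41.9%), between them in 32 (37.2%) and below both in 18 (20.9%), beside 57.5%, 16.8% and 25.7% of all 9062 genes with a lower siRNF2 mean. Most higher genes were thus above the control in both depletions, and further in siRNF2. The siEED+RNF2 mean lay between the single depletions in 122 of the 146 higher genes (83.6%) and in 64 of the 86 lower genes (74.4%), beside 33.1% and 27.7% of all genes with the same sign. It was nearer to siEED than to siRNF2 in 112 of the higher genes (76.7%) and 59 of the lower genes (68.6%), beside 41.9% and 60.9%. The gap between the single depletions chose these genes and leaves more room between them, so these shares describe the genes and were not tested.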

How the data were processed

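Expression in NCCIT cells was measured on 12 Affymetrix Human Gene ST arrays, 2 for each of 6 conditions taken from the labels, from 250 ng total RNA each. The authors deposited log2 values for 33297 transcript clusters, and every value column was used. GCRMA and Partek are named in the submitters' processing notes, and the deposited values thus already hold a background correction and a normalisation between arrays, which sets the balance of higher and lower calls. Versions, settings and the genome build were not given in the sources used here. Clusters were named through the platform annotation, updated by gene number against RefSeq (GRCh38.p14). Clusters with 1 gene (19460, of which 19429 matched by number) were kept, and those with several (1754) or none listed (12083) were not named. The cluster with the highest mean stood for each of 769 genes with several, leaving 18417.

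With limma 3.58.1 (R 4.3.3), each condition received its own mean in a model of all 12 arrays (6 residual degrees of freedom), followed by the contrast siRNF2 minus siEED, empirical Bayes moderation and Benjamini-Hochberg adjustment over all genes. A call required a fold change of 1.5 or more and an adjusted p under 0.05. Standard errors (±) and intervals are those of the moderated fit. Contrasts with siNTC and siEED+RNF2 came from the same fit, and those with siNTC share its arrays. The fit was tested on simulated data.

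Genes named were EED, LAMP3, TAC1 and HOXB2, the 12 highest and 12 lowest differences among called genes with separate arrays, up to 4 called members of each of 38 gene lists, and genes called in opposite directions against siNTC. Small nucleolar, micro and provisional (LOC, LINC, orf) symbols were counted and not named, which passed over 1 gene among the 12 highest and 0 among the 12 lowest. Other list members are named as examples chosen after their values were seen. The comparison, lists and rule were chosen with earlier results of these data known. The number of arrays limits precision. Python 3.11.15 with matplotlib 3.10.9 drew the figures. A gene family that was also looked up is not reported here.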

Additional observations from a re-analysis of the deposited data

How the results depend on the processing

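The 146 higher and 86 lower genes numbered 1217 and 751 with no fold limit, 23 and 15 at a fold of at least 2, and 163 and 183 over every transcript cluster, named or not. Leaving out an array in turn gave 133 to 179 higher and 83 to 97 lower genes. Of the reported calls, 109 to 130 higher and 72 to 76 lower ones were made again without an array, and the lone array was then assumed to vary like the other conditions. Arrays with the same number were not clearly paired (correlation of their deviations 0.09 between siEED and siRNF2), and a fit with the replicate block called 147 and 86 genes and changed no call of a named gene. Centring on the gene median left 103 of the 146 higher genes and all 86 lower genes called, and added 27 lower ones. The fit of the 4 arrays alone, no moderation, a variance trend, quantile normalisation, centring on all clusters, leaving out the dimmest 30% of genes, averaging clusters and an adjusted p under 0.01 kept both counts within 1.5 times.

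No named gene of 49 changed direction under any alternative run for it. All 16 alternatives could be run for 47 (LIX1 and HOXA2 were among the dimmest 30%), and 24 of these kept their call under every one. An array left out ended the call of 8 and another scaling that of 5, among them EED (0.58 without siEED replicate 2 and 0.58 centred on the gene median). With 2 arrays per condition, small differences near the fold limit are not settled.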

Other observations

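Some gene families outside the lists, looked up after the values were seen, are given as values. Of 16 measured protocadherin beta genes, neuronal adhesion receptors encoded in a tandem cluster, 3 were called lower in siRNF2 than in siEED and 0 higher. These were PCDHB14 (-0.70), PCDHB12 (-0.66) and PCDHB16 (-0.60), 15 of the 16 differences were negative, and the median was -0.46. The genes are near-identical copies, so probes may be shared among them and the members are not separate measurements. Of 4 LRRTM genes, which encode synaptic adhesion proteins, LRRTM3 (-0.76) and LRRTM4 (-0.67) were called lower. Of 6 APOBEC3 cytidine deaminase genes, APOBEC3G (0.82) and APOBEC3F (0.80) were called higher, all 6 differences were positive with a median of 0.45, and the copies are similar in sequence as well.

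A pair of genes of lipid metabolism outside the sterol list, also picked after their values were seen, were called lower. ACSS2, which makes acetyl-CoA from acetate, was at 8.28 and 8.09 in siRNF2, against 8.73 and 9.01 in siEED (-0.69 ± 0.10), and differed from siNTC by -0.35 in siRNF2 and by 0.34 in siEED, neither called. PNPLA3, a lipid droplet protein, was at 9.19 and 9.16 in siRNF2, against 9.81 and 9.89 in siEED (-0.67 ± 0.08). It differed from siNTC by 0.54 in siRNF2 and by 1.21 in siEED, above the control in both, whereas HMGCS1 of the sterol list differed by -2.44 in siRNF2 and by -1.18 in siEED.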
